A study of Mus musculus with 8 samples.

Results

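The mouse miR-29 family, made up of miR-29a, miR-29b and miR-29c, comes from 4 hairpins, Mir29a, Mir29b-1, Mir29b-2 and Mir29c, and both arms of each were counted here in every small-RNA library of the series. A read was given to an arm when its first 20 bases were identical to those of the mature miRNA in RefSeq. Because Mir29b-1 and Mir29b-2 yield the same 3p arm, the 4 hairpins give 7 distinct mature miRNAs, of 609 that had at least 1 read in the series. They are 3 guides, the 3p arms miR-29a-3p, miR-29b-3p and miR-29c-3p, and 4 passengers, the 5p arms miR-29a-5p, miR-29b-1-5p, miR-29b-2-5p and miR-29c-5p.

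The cells were NIH-3T3, an immortalised mouse fibroblast line passaged in 10% serum, and each of the 8 conditions was 1 library. In the serum experiment cells were starved for 48 h, given medium with 20% serum and harvested 0 h (labelled G0), 12 h (G1), 16 h (S), 20 h (G2/M) and 24 h (G1) later. In the contact experiment cells were plated at 12% confluency and harvested on day 0 (asynchronous), day 3 and day 5 (both G0). The 3 libraries labelled G0, which are serum 0 h and contact days 3 and 5, were compared with the other 5, serum 12, 16, 20 and 24 h and contact day 0. Those 5 span several phases, and contact day 0 is the only library of its experiment among them.

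miRNAs of this family are known as repressors of collagens and other matrix genes, of the DNA methyltransferases Dnmt3a and Dnmt3b, and of Mcl1 and Cdk6, which link them to fibrosis, DNA methylation, survival and the cell cycle. A miRNA finds most of its targets through its seed, bases 2 to 8 from the 5′ end, so guides with 1 seed share most predicted targets. A Dicer product is a duplex of the 2 arms, of which the guide is kept in Argonaute and the passenger is mostly lost. In human cells miR-29b has been described as nuclear, through a short element at its 3′ end, and as short-lived in cycling cells.

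The 3 guides are shown first, because they share 1 seed (capitals) and differ only outside it. All sequences are from RefSeq on GRCm38.p6, written 5′ to 3′.
miR-29a-3p: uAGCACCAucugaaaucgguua
miR-29b-3p: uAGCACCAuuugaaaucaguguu
miR-29c-3p: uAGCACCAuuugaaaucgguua
Counting from 1 at the 5′ end, miR-29c-3p differs from miR-29a-3p by C10U alone. miR-29b-3p differs from miR-29c-3p by G18A, U21G and A22U and is 1 base longer, at 23 against 22 nt. The base at position 10 therefore sets miR-29a-3p apart from the other two guides within the 20 bases matched, and the base at position 18 sets miR-29b-3p apart.

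The 4 passengers, again with bases 2 to 8 in capitals, are shown because they tell the 2 miR-29b hairpins apart, which the guide cannot.
miR-29a-5p: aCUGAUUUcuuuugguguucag
miR-29b-1-5p: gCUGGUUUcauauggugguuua
miR-29b-2-5p: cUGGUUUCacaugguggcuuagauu
miR-29c-5p: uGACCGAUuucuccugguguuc
None of the 4 shares its bases 2 to 8 with another of the 4 or with the guides.

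The hairpins lie in 2 clusters. Mir29b-1 (chr6:31063023-31063093) and Mir29a (chr6:31062660-31062747) are on the minus strand of chromosome 6 with 275 bases between them. Mir29b-2 (chr1:195037040-195037120) and Mir29c (chr1:195037547-195037634) are on the plus strand of chromosome 1 with 426 bases between them. In GENCODE M21, Mir29b-2 and Mir29c lie in an exon of the non-coding A330023F24Rik on the same strand, and in an exon of Cd46, which encodes a complement regulator, on the opposite strand. Mir29a overlaps only its own gene, and Mir29b-1 shares its outermost bases with an exon of the lincRNA Gm27019 on the same strand. The 2 miR-29b hairpins are shown with both arms in capitals, since the bases around the common 3p arm also differ.
Mir29b-1: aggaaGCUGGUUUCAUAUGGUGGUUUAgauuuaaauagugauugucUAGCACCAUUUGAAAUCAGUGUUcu
Mir29b-2: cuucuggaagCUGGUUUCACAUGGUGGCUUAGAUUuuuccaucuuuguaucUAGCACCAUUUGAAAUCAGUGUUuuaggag

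Libraries held 707202 to 8512472 reads, of which 131665 to 854968 were counted for a miRNA. The share of miRNA reads was 1.77% to 12.1% of all reads in the serum libraries and 44.9% to 55.4% in the contact libraries, so the contact libraries, with fewer reads in all, were not the shallowest for miRNAs. The serum 12 h library held the fewest miRNAs with a read, 209, against 271 to 467 in the other 7. At serum 0 h, 28.7% of the reads with an adapter had an insert outside 16 to 30 nt, against 0.574% to 2.70% in the other libraries. Of 7 fibroblast or mesenchymal marker miRNAs 5 had a read, all 5 in every library, and together they took 9.82% to 31.6% of miRNA reads in G0 libraries and 5.75% to 26.6% in the others. Epithelial markers summed to 0.303% at serum 0 h and to at most 0.00681% elsewhere, blood markers to at most 0.0274%, and the liver marker was at 0 in every library. Pluripotent markers reached 0.103% at serum 12 h, and neural and muscle markers at most 0.102% and 0.0598%. The part of any of these in the results below was not tested.

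The family was far more of the miRNA pool in the serum libraries than in the contact libraries. Its 7 arms took 9.15%, 8.30%, 11.9%, 12.7% and 9.01% of miRNA reads at 0, 12, 16, 20 and 24 h, and 3.07%, 2.80% and 2.50% on contact days 0, 3 and 5. The 2 experiments did not overlap in this share, but they are also 2 sets of libraries, and the experiment and the library set cannot be told apart.

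miR-29a-3p was the most abundant member in all 8 libraries. Its level, in counts per 1000000 miRNA reads with TMM scaling (CPM), was 58655, 52429, 94117, 100525 and 69107 at serum 0, 12, 16, 20 and 24 h. On contact days 0, 3 and 5 it was 41633, 25586 and 33354 CPM. It ranked 2nd or 3rd among all miRNAs in the serum libraries and between 10th and 13th in the contact libraries. The highest of the 8 levels was 3.93 times the lowest, the narrowest range among the guides, and G0 libraries overlapped the others.

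miR-29b-3p varied more. It was at 7408, 2713, 9886, 5315 and 4361 CPM at serum 0, 12, 16, 20 and 24 h. On contact days 0, 3 and 5 it was at 621, 6117 and 4579 CPM, from 133, 2016 and 1208 reads. Contact day 0 was the lowest of the 8 libraries and 16 h, the S-phase library, the highest, 15.9 times apart, and the G0 libraries overlapped the others. Its rank among miRNAs was 91st on contact day 0 and between 21st and 39th elsewhere.

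miR-29c-3p was the least abundant guide in every library. It was at 2352, 494, 1694, 1164 and 661 CPM at serum 0, 12, 16, 20 and 24 h. On contact days 0, 3 and 5 it was at 616, 2870 and 3127 CPM, from 132, 946 and 825 reads. It is the only guide whose 3 G0 libraries, at 2352 to 3127 CPM, all lay above the other 5, at 494 to 1694 CPM. Of the 309 miRNAs tested, 4.53% showed that order in TMM-scaled CPM and 4.21% showed the opposite one. With total miRNA reads as the scale, miR-29c-3p lost that order. Contact day 5 was then at 0.1883% of miRNA reads, just below serum 16 h at 0.1895%. On contact day 0, miR-29c-3p and miR-29b-3p were within counting error of each other, with a ratio of reads of 1.01 (95% interval 0.786 to 1.29), and in each of the other 7 libraries the interval of that ratio lay above 1.

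**Figure D1:**
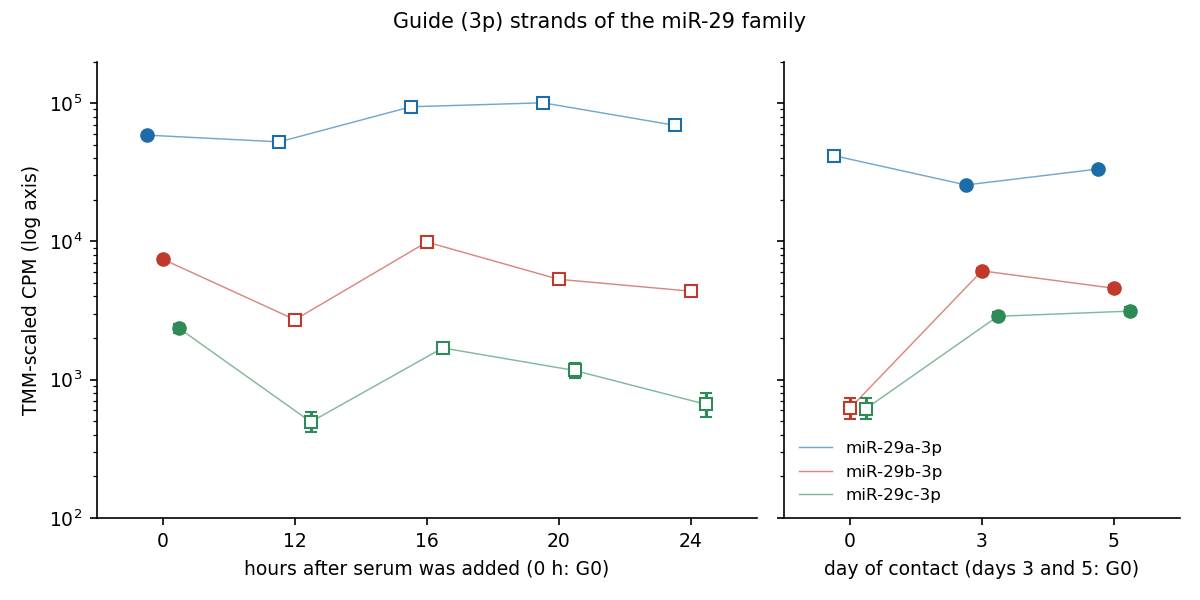
Level of each guide in each library, in TMM-scaled CPM on a log axis, by hours after serum (left) and day of contact (right). Filled circles are the libraries labelled G0, open squares the others, and bars the 95% counting interval, mostly smaller than the symbol. miR-29c-3p lies at 2352 to 3127 CPM in the 3 G0 libraries and at 494 to 1694 CPM in the other 5.

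In the fit over all miRNAs, none of the members passed the threshold in G0 libraries against the others. The test was edgeR's quasi-likelihood test with experiment as a term and a Benjamini-Hochberg adjusted p under 0.05 over 309 miRNAs, and it called 0.647% of them, both higher in G0 (miR-503-5p and miR-10a-5p, chosen here because the count is small). Of the 7 members 5 were tested, of which 3 had an unadjusted p under 0.05, as had 27 of all 309, and miR-29b-2-5p and miR-29c-5p were too low for the filter. The median log2 fold change was -0.01 over the 5 tested members and -0.23 over all 309. With 1 library per condition these p-values measure only the spread between libraries, times and phases included.

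miR-29c-3p had a log2 fold change of 1.71 ± 0.63 (SE, 3 G0 libraries against 5 others), with an edgeR adjusted p of 0.274, and of 1.23 (without contact day 0) to 2.31 (without serum 0 h) when 1 library was left out. miR-29b-3p had 1.67 ± 0.75 with an edgeR adjusted p of 0.478. Without contact day 0 the value for miR-29b-3p was 0.41, and without serum 0 h it was 3.14. Because experiment is a term, the first fit takes the G0 difference from the serum libraries alone and the second from the contact libraries alone. The values of these fits, for miR-29c-3p as well, are thus those of 1 experiment each. miR-29a-3p had -0.46 ± 0.38 with an edgeR adjusted p of 0.690. An interaction term for arrest and experiment called 0 of 309 miRNAs (0%), with 17 at an unadjusted p under 0.05 in edgeR, and 0 with 19 in DESeq2. For miR-29b-3p that term was 2.69 ± 1.18 on the log2 scale (contact minus serum), edgeR adjusted p = 0.786.

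Within the contact experiment the guides differed in their ratio to day 0. miR-29b-3p on day 3 was 9.85 times its day 0 level (8.26 to 11.8, 95% interval for counting error only) and on day 5 was 7.37 times (6.16 to 8.89). miR-29c-3p was 4.66 times its day 0 level on day 3 (3.88 to 5.63) and 5.07 times on day 5 (4.22 to 6.15). miR-29a-3p was at 0.615 of its day 0 level on day 3 (0.596 to 0.633) and 0.801 on day 5 (0.778 to 0.825). Of the miRNAs that reached 100 reads in either library, 22.7% were at least 2-fold higher on day 3 and 39.4% on day 5, with an interval that excluded 1.

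After serum was added, miR-29c-3p was below its 0 h level in all 4 later libraries. It was at 0.210 of that level at 12 h (0.174 to 0.252), 0.720 at 16 h (0.659 to 0.788), 0.495 at 20 h (0.426 to 0.573) and 0.281 at 24 h (0.227 to 0.345). The values at 12, 20 and 24 h were at least 2-fold lower, as were 31.8%, 17.1% and 23.9% of the miRNAs with 100 reads in either library at those times. At 20 h this rests on the match length, since with 18 bases matched the ratio was 0.501. miR-29b-3p was at 0.366, 1.33, 0.717 and 0.589 of its 0 h level at 12, 16, 20 and 24 h, and only the first was 2-fold. miR-29a-3p was at 0.894, 1.60, 1.71 and 1.18 of its 0 h level, within 2-fold throughout. With total miRNA reads as the scale the 12 h value was 1.0, so no direction is given for it.

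A ratio of 2 guides in 1 library needs no scaling, and the mix of guides in G0 libraries lay on the same side of the other libraries in both experiments. miR-29a-3p made up 85.7%, 94.2%, 89.0%, 93.9% and 93.2% of guide reads at serum 0, 12, 16, 20 and 24 h, and 97.1%, 74.0% and 81.2% on contact days 0, 3 and 5. miR-29b-3p made up 10.8%, 4.88%, 9.35%, 4.97% and 5.88% in the serum series and 1.45%, 17.7% and 11.2% in the contact series. miR-29c-3p made up 3.44%, 0.888%, 1.60%, 1.09% and 0.891% in the serum series and 1.44%, 8.30% and 7.62% in the contact series. In all 3 G0 libraries miR-29a-3p thus held a smaller share than in any of the other 5.

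The cluster comparison used miR-29a-3p for the chromosome 6 cluster and miR-29c-3p for the chromosome 1 cluster, since each comes from 1 hairpin only. There were 24.9, 106, 55.6, 86.4 and 105 reads of miR-29a-3p per read of miR-29c-3p at serum 0, 12, 16, 20 and 24 h, and 67.6, 8.91 and 10.7 on contact days 0, 3 and 5. The 3 G0 libraries were the 3 lowest. The mean log2 ratio was 3.74 ± 0.79 in the G0 libraries (SD, n = 3) and 6.34 ± 0.40 in the others (SD, n = 5), a difference of -2.61. By a 2-sided exact permutation test over the 56 ways to choose 3 of 8 libraries, p = 0.0179, the smallest that these splits allow. After adjustment over the 5 ratios tested the permutation p was 0.0893, so it did not pass 0.05. This test, like that of each ratio below, takes no account of the experiment. The G0 libraries are mostly from contact and the others mostly from serum, so the p does not separate arrest from experiment. Within the serum experiment the difference was -1.77 and within the contact experiment -2.79.

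The ratio of miR-29b-3p to miR-29a-3p was higher in all 3 G0 libraries than in any other. It was 12.6, 5.17, 10.5, 5.29 and 6.31 reads of miR-29b-3p per 100 of miR-29a-3p at serum 0, 12, 16, 20 and 24 h, and 1.49, 23.9 and 13.7 on contact days 0, 3 and 5. The difference in mean log2 ratio was 1.72, with an exact permutation p of 0.0357 (2-sided, n = 3 and 5) and 0.0893 adjusted, and was 0.95 within serum and 3.60 within contact. The ratio of miR-29b-3p to miR-29c-3p differed by -0.88 with an exact permutation p of 0.286 (2-sided, n = 3 and 5), adjusted 0.375. That ratio had opposite signs in the 2 experiments, -0.82 in serum and 0.81 in contact.

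miR-29a-3p and miR-29c-3p differ by 1 base in the 20 matched, so misread bases could move reads between them. Reads with the other 2 bases at the separating positions gave an expected 0.106% to 4.96% of the miR-29c-3p count in a library. With those reads taken off, the difference in the cluster ratio was -2.65 on the log2 scale, with the same exact permutation p of 0.0179 (2-sided, n = 3 and 5).

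The passengers of the chromosome 6 cluster were the only ones seen in most libraries at their annotated starts. miR-29a-5p was at 299, 0, 545, 394 and 271 CPM at serum 0, 12, 16, 20 and 24 h, and at 551, 819 and 284 CPM on contact days 0, 3 and 5. The 0 at 12 h, where 15173 reads of its guide were counted, allows a level of up to 10.4 CPM. Outside that library miR-29a-5p had 43 to 521 reads, and G0 libraries overlapped the others. Its edgeR log2 fold change was -0.01 ± 1.14 with an adjusted p of 0.996, and its sign changed with the processing.

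miR-29b-1-5p varied widely. It was at 9.95, 72.6, 306, 202 and 277 CPM at serum 0, 12, 16, 20 and 24 h, from 3, 21, 293, 42 and 44 reads. On contact days 0, 3 and 5 it was at 2129, 534 and 91.0 CPM, from 456, 176 and 24 reads. The highest level was 214 times the lowest, but the lowest rests on 3 reads. Within each experiment every G0 library lay below every other one, while contact day 3 lay above all 4 released serum libraries.

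Compared with the first library of its experiment, miR-29b-1-5p ran opposite to its guide in the contact series. On day 3 it was at 0.251 of its day 0 level (0.210 to 0.299) and on day 5 at 0.0427 (0.0271 to 0.0644), where 6.06% and 21.9% of the miRNAs with 100 reads in either library were at least 2-fold lower. After serum it was 7.29 times its 0 h level at 12 h (2.18 to 38.2), 30.8 times at 16 h (10.4 to 150), 20.3 times at 20 h (6.49 to 102) and 27.8 times at 24 h (8.92 to 140). At these times 19.7%, 13.2%, 18.5% and 16.9% of the miRNAs with 100 reads in either library were at least 2-fold higher, but miR-29b-1-5p itself reached 100 reads only at 16 h, so at the other times it lies outside that set. Its ratios after serum all rest on the 3 reads at 0 h, which were 1 distinct read. The 21 reads at 12 h came as 2 distinct reads, which the intervals do not take into account. miR-29a-5p, from the neighbouring hairpin, was within 2-fold of its first library at serum 16, 20 and 24 h and on both contact days. On contact day 5 it was at 0.516 of day 0, which became 0.461 with total miRNA reads and 0.391 with DESeq2 size factors as the scale.

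In the edgeR fit miR-29b-1-5p had a log2 fold change of -3.48 ± 0.87 (3 G0 libraries against 5 others) and an adjusted p of 0.0530, just over the threshold. It was under the threshold with DESeq2's own test, with an adjusted p of 0.00109, with DESeq2 size factors in edgeR, at 0.0287, without the filter on low counts, at 0.0239, and with 18 bases matched, at 0.0374. The edgeR adjusted p stayed over the threshold with total miRNA reads as the scale, at 0.0627, and with whole inserts on the hairpin, at 0.0785. DESeq2's own test called 6 miRNAs higher and 11 lower of 309, and the fit without the filter 10 higher and 2 lower of 609. Leaving out 1 library gave log2 fold changes of -4.43 to -2.74, and the edgeR adjusted p was 0.0180 without serum 12 h, 0.0315 without serum 16 h and 0.00192 without contact day 3. It was 0.324 without serum 0 h, 0.0812 without 20 h, 0.105 without 24 h, 0.491 without contact day 0 and 0.130 without day 5. With no experiment term the log2 fold change was -1.49, with an edgeR adjusted p of 0.612. Over all alternatives the adjusted p ranged between 0.00109 and 0.612.

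**Figure D2:**
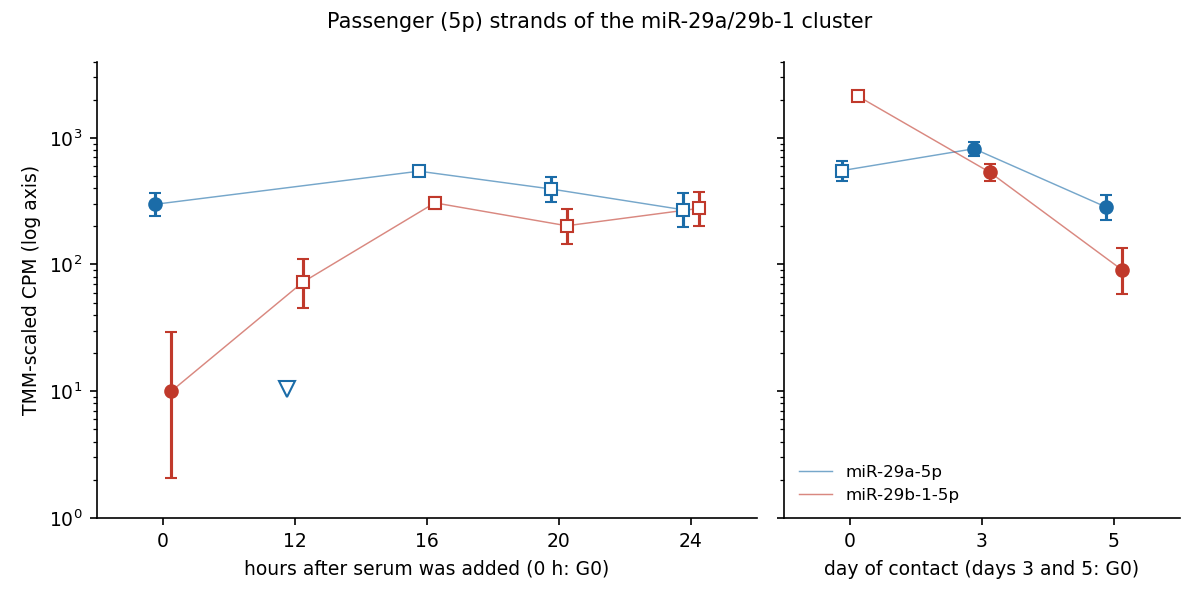
Level of miR-29a-5p and miR-29b-1-5p in each library, in TMM-scaled CPM on a log axis, with 95% counting intervals. Filled circles are G0 libraries, open squares the others, and the open triangle is the upper limit of 10.4 CPM that 0 reads of miR-29a-5p allow at serum 12 h. miR-29b-1-5p is lowest at serum 0 h (9.95 CPM) and highest on contact day 0 (2129 CPM).

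The 5p to 3p ratio of the 2 hairpins of this cluster differed in how far it moved. For Mir29a there were 0.509, 0, 0.579, 0.392 and 0.392 reads of the passenger per 100 of the guide at serum 0, 12, 16, 20 and 24 h, with an upper limit of 0.0243 at 12 h, and 1.32, 3.20 and 0.852 on contact days 0, 3 and 5. For Mir29b-1 there were 0.134, 2.68, 3.10, 3.80 and 6.35 reads of miR-29b-1-5p per 100 of miR-29b-3p in the serum series. On contact days 0, 3 and 5 there were 343 (282 to 419), 8.73 (7.44 to 10.2) and 1.99 (1.27 to 2.97). Contact day 0 was the only library with more reads of the 5p arm than of the 3p arm, 456 against 133, even though miR-29b-3p also counts what Mir29b-2 yields.

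**Figure D3:**
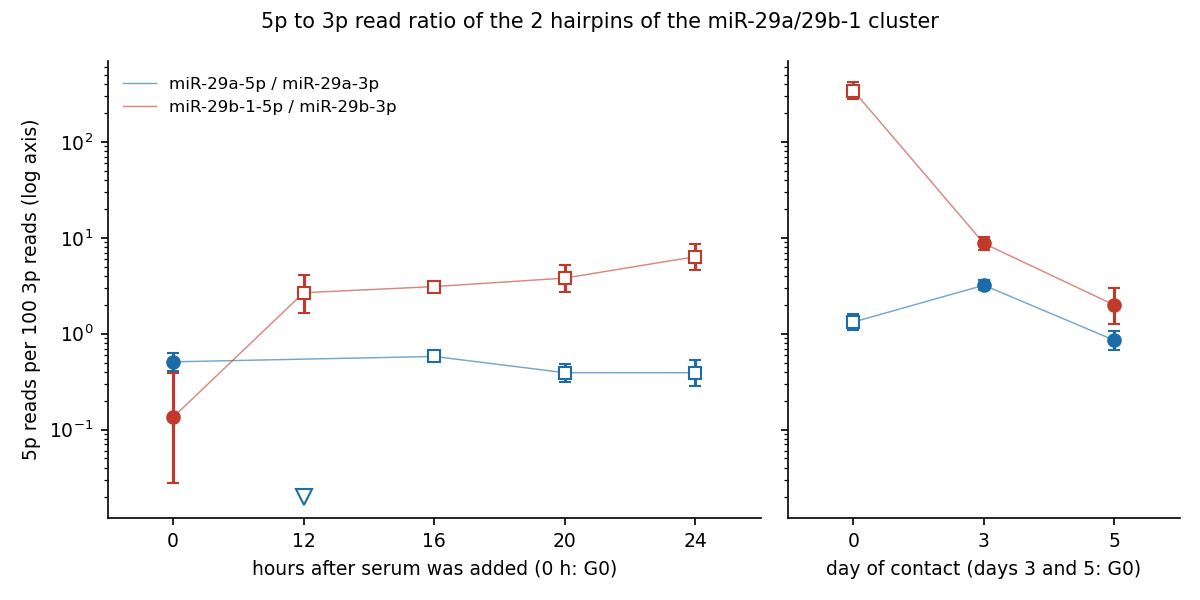
Reads of the 5p arm per 100 reads of the 3p arm, on a log axis, for the Mir29a and Mir29b-1 hairpins, with 95% counting intervals. Filled circles are G0 libraries, open squares the others, and the open triangle is the limit from 3 counts for 0 reads of miR-29a-5p at serum 12 h. The Mir29b-1 ratio lies at 343 on contact day 0 and at 0.134 at serum 0 h.

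Across the 3 G0 libraries against the other 5, neither arm ratio passed the test. For Mir29b-1 the mean log2 ratio was -6.15 ± 2.94 in G0 libraries (SD, n = 3) and -3.42 ± 2.94 in the others (SD, n = 5), with an exact permutation p of 0.357 and 0.375 adjusted. Within the serum experiment the difference was -4.60, and within the contact experiment -6.34, larger in size than the pooled -2.73 in both. Without serum 0 h the pooled value was -1.15, without contact day 0 it was -1.44 and without contact day 3 it was -4.05. The pooled test takes no account of the experiment, and the ratio on contact day 3 lay above all 5 serum ratios. For Mir29a the difference was 2.42, with an exact permutation p of 0.375 (2-sided, n = 3 and 5), also 0.375 after adjustment. Without serum 12 h, where miR-29a-5p had 0 reads, the Mir29a difference was 0.93.

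The shift of Mir29b-1 was set beside those of hairpins whose 2 arms each reached 10 reads in either library compared, a comparison chosen after seeing the data. Hairpins with an arm shared between genes were left out, except Mir29b-1 itself. Its 3p count also holds the reads of Mir29b-2, so its ratio is not that of 1 hairpin as the others are. On contact day 3 against day 0 its log2 5p to 3p ratio shifted by -5.29, the largest of 60 hairpins, where the median size of a shift was 0.978. On day 5 it shifted by -7.40, the largest of 63, with a median size of 1.43. In the serum series its shifts were less unusual: 4.13, 4.31, 4.62 and 5.36 at 12, 16, 20 and 24 h against 0 h, ranked 24th of 60, 12th of 95, 17th of 71 and 10th of 64 by size. Mir29a shifted by 1.27 on contact day 3 and by -0.63 on day 5, ranked 23rd and 42nd. At serum 12 h, where its passenger had 0 reads, it shifted by -7.28 with the pseudocount, ranked 4th of 60 and larger in size than Mir29b-1. At 16, 20 and 24 h its shifts were 0.18, -0.37 and -0.37, ranked 88th of 95, 60th of 71 and 56th of 64.

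**Figure D4:**
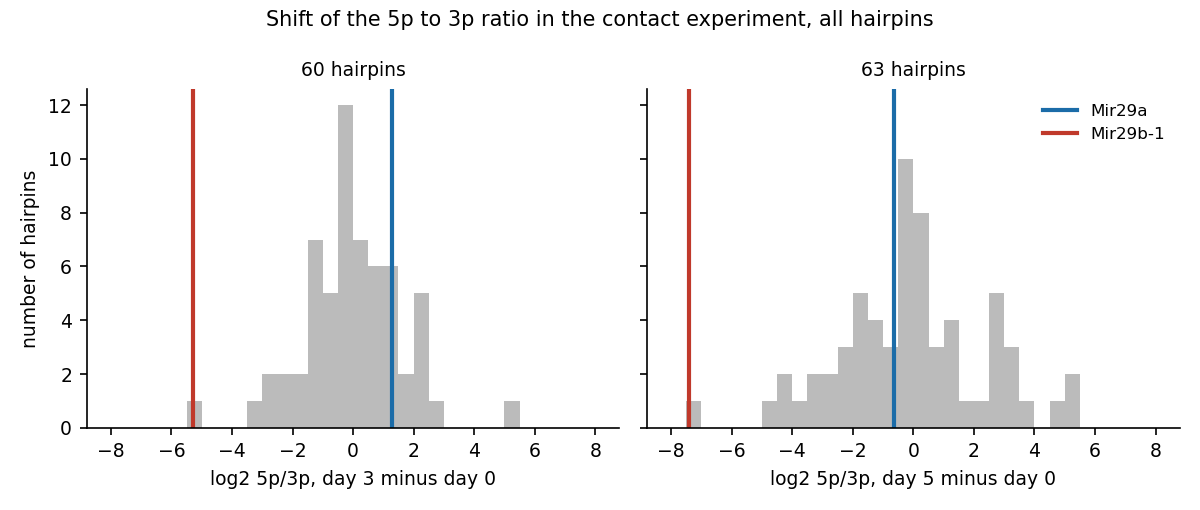
Histograms of the log2 5p to 3p read ratio on contact day 3 (left, 60 hairpins) and day 5 (right, 63 hairpins), each minus day 0, with a pseudocount of 0.5 reads. The lines mark Mir29b-1, at -5.29 and -7.40, and Mir29a, at 1.27 and -0.63. Mir29b-1 is the only hairpin shown whose 3p count includes reads of another hairpin.

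The chromosome 1 cluster left few passengers. Over all libraries miR-29b-2-5p had 7 reads and miR-29c-5p 17, against 1059 reads of miR-29b-1-5p and 1199 of miR-29a-5p. The 24 reads were 1.05% of 2282 passenger reads (0.675% to 1.56%, exact Clopper-Pearson). All 17 reads of miR-29c-5p and 4 of the 7 of miR-29b-2-5p came from serum 16 h, the library with most miRNA reads. For Mir29b-2 the counts were 0.0423 per 100 reads of miR-29b-3p at 16 h, 1.5 on contact day 0 and 0.0496 on day 3, and 0 in the other 5 libraries, which allows up to 0.134 to 0.433 per 100. For Mir29c there were 1.05 per 100 reads of its guide at 16 h and 0 in the other 7, which allows up to 0.317 to 2.86 per 100. For reads at the annotated start, the limit lay below the value at 16 h in the 3 G0 libraries. It was 0.317 on contact day 3, 0.364 on contact day 5 and 0.423 at serum 0 h. In the other 4 libraries the limit lay above the value at 16 h, at 1.24 to 2.86. With counts of 0 in most libraries, no arm ratio was tested for these 2 hairpins.

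Passengers of Mir29c did not always begin at the annotated base. With starts up to 3 nt away and 18 bases matched, a count chosen after seeing the data, miR-29c-5p had 47 reads, of which 30 began elsewhere, and these came from serum 16 and 20 h and all 3 contact libraries. Reads that began elsewhere numbered 6 on contact day 3 and 4 on day 5, so the limits above hold for the annotated start only. miR-29b-2-5p then had 11 reads, 4 of them from other starts. Together they made up 2.40% of 2420 passenger reads (1.82% to 3.09%). For miR-29a-5p 38 of 1263 reads, and for miR-29b-1-5p 5 of 1099, began elsewhere.

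The 3′ ends set miR-29b-3p apart from its relatives. In every library most reads of miR-29a-3p (69.1% to 85.8%) and of miR-29c-3p (76.4% to 100%) were 22 nt long, their annotated length. miR-29b-3p, annotated at 23 nt, was 20 nt long in 34.6%, 53.8%, 41.5%, 44.0% and 51.5% of reads at serum 0, 12, 16, 20 and 24 h, and in 61.7%, 63.7% and 62.0% on contact days 0, 3 and 5. A 20-nt read lacks the last 3 bases, including the bases at positions 21 and 22 where this guide differs from miR-29c-3p. Among miRNAs annotated at 23 nt or more with enough reads, a comparison also chosen after seeing the data, the share of reads at least 3 nt short had a median of 0% to 1.29%, and miR-29b-3p ranked between 1st and 4th in each library, of 21 to 41.

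The 20-nt share of miR-29b-3p was lowest at serum 0 h, the library with most inserts outside 16 to 30 nt, and highest on contact day 3, both labelled G0, so it did not follow the arrest label. All 3 contact libraries lay above all 5 serum libraries. Reads shorter than 20 nt are not in these counts. Reads matched at 18 but not at 20 bases made up 0.144% to 3.62% of the miR-29b-3p reads matched at 18. These may also include reads of 20 nt or more with another base after position 18. At 12 h all 143 reads of miR-29c-3p were 22 nt long and came as 7 distinct reads.

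**Figure D5:**
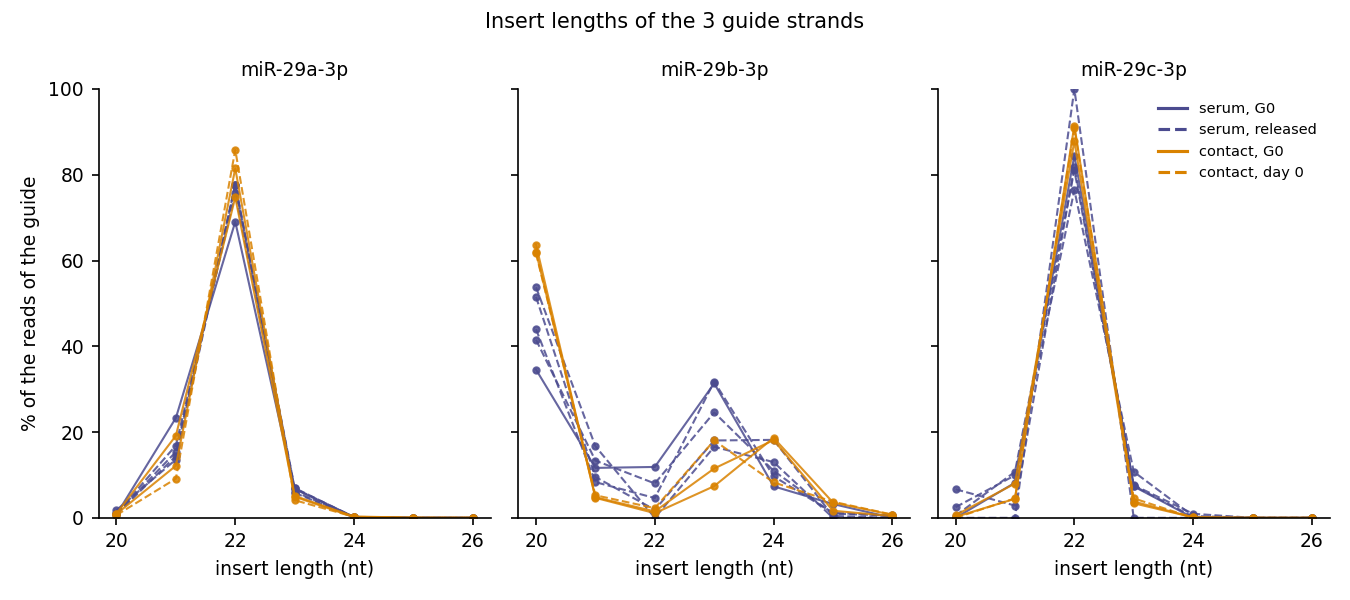
Share of the reads of each guide by insert length, 1 line per library, for the serum (blue) and contact (orange) experiments, with solid lines for G0 libraries and dashed lines for the others. miR-29a-3p and miR-29c-3p peak at 22 nt, and miR-29b-3p has its main peak at 20 nt (34.6% to 63.7%) and further reads at 23 and 24 nt.

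Longer reads of miR-29b-3p often ended in an added A. Tails made only of A and not found on the hairpins were on 7.88%, 9.68%, 9.66%, 9.50% and 17.5% of its reads at serum 0, 12, 16, 20 and 24 h, and on 12.8%, 20.0% and 17.1% on contact days 0, 3 and 5. For miR-29a-3p the share was 2.72% to 4.46%, and for miR-29c-3p 0% to 8.57%. Over all miRNAs with enough reads, again compared after seeing the data, the median was 1.93% to 11.4% by library. miR-29b-3p ranked highest on contact days 3 and 5, at 16th of 126 and 16th of 125. Elsewhere it ranked between 24th of 89 (serum 24 h) and 64th of 185 (serum 16 h). At serum 16 h its 9.66% stood beside a median of 7.04%, and at 20 h its 9.50% beside 8.16%. Tails of U alone were on at most 1.54% of the reads of any guide.

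The base after the annotated end of miR-29b-3p differs between its hairpins, C in Mir29b-1 and U in Mir29b-2. Of 2127 reads of 24 nt that matched its 23 annotated bases, 1672 ended in A (78.6%), 421 in U (19.8%), 18 in C and 16 in G. C was seen at serum 0 and 16 h and on contact day 5 only. An added U would look like a read of Mir29b-2, so this count does not give the share of each hairpin.

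The 5′ ends, which set the seed, were mostly as annotated: 93.2% to 95.3% of miR-29a-3p, 89.2% to 97.4% of miR-29b-3p and 93.5% to 100% of miR-29c-3p began at the annotated base. The main exception for miR-29a-3p was a start 1 base earlier, in 3.31% to 5.68% of reads. At serum 0 h, starts 1 base later made up 6.0% of miR-29b-3p and 6.33% of miR-29c-3p, the highest share of the 8 libraries for both. A read had to hold 20 bases from its own start, so a later start that ended at position 20 was not counted. Later starts of miR-29b-3p may thus be undercounted, since 34.6% to 63.7% of its reads were 20 nt long. That share was lowest at serum 0 h.

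The miRNAs whose levels followed each guide most closely over the 8 libraries were different for each. The likeness is Pearson's r of log2(CPM + 1) among 243 miRNAs, given as a description, since all points share depth and the split between experiments. For miR-29c-3p they were miR-18a-5p (r = 0.984), miR-503-5p (0.960), miR-322-5p (0.960), miR-15a-5p (0.958) and miR-34b-5p (0.934). For miR-29b-3p they were miR-136-5p (0.925), miR-376b-3p (0.910), miR-24-2-5p (0.901), miR-30e-5p (0.898) and miR-376a-3p (0.892). For miR-29a-3p they were miR-494-3p (0.880), miR-329-3p (0.875), miR-350-3p (0.874), miR-22-3p (0.859) and miR-652-3p (0.846). Among the guides themselves r was 0.62 between miR-29b-3p and miR-29c-3p, 0.30 between miR-29a-3p and miR-29b-3p, and -0.34 between miR-29a-3p and miR-29c-3p, so no guide was among another's closest 5.

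The 3 lists of other miRNAs with related roles were read from the same edgeR fit. Of 12 linked to fibrosis or matrix, 7 were tested and none was called, with a median log2 fold change of 0.26 and, for example, 1.17 ± 0.48 for miR-21a-5p (edgeR adjusted p = 0.356). Of 3 linked to DNA methyltransferases, all 3 were tested and none was called, with a median of 0.83. The list drawn up for fast turnover, a trait not measured here and not established here for each member, held 6 miRNAs. All 6 were tested and 1 was called, miR-503-5p, higher in G0. Its log2 fold change was 3.36 ± 0.64, with an edgeR adjusted p of 0.00647. In that list miR-322-5p had 2.00 ± 0.58 and miR-155-5p -3.31 ± 0.96, both with an edgeR adjusted p of 0.0920.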

How the data were processed

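The deposited files give, for each library, every distinct 36-nt read and the count of times it was sequenced, as the authors deposited them, with the 3′ adapter still present. Any aligner, read filter or build of the authors is not given in the sources used here. Library preparation is cited per the labels' protocols to an earlier publication. In Python 3.11.15 the adapter was trimmed from reads showing 6 or more of its bases (1 mismatch per 8), and inserts of 16 to 30 nt were kept. Of 1738 RefSeq mature miRNAs, 52 shorter than 20 nt were left out, leaving 1621 distinct first-20 sequences, 5 of them shared by several names. These counts were tested with edgeR 4.0.16 in R 4.3.3 (TMM, robust quasi-likelihood, experiment as a term) on the 309 with at least 10 CPM in at least 3 libraries, and with DESeq2 1.42.0 as an alternative. On simulated data for this comparison, with 103 of 309 miRNAs changed, the fit found 0.971% of 2-fold, 30.1% of 4-fold and 58.3% of 8-fold changes. SEs are the log2 fold change over the square root of F. Ratios between arms or guides used a pseudocount of 0.5 and exact permutation over 56 splits (scipy 1.17.1). Single libraries were compared by the ratio of their TMM-scaled levels, for members whatever their count and for the share of other miRNAs past 2-fold where 1 of the libraries reached 100 reads, with 95% exact conditional binomial intervals. Shares have 95% exact Clopper-Pearson intervals, and a count of 0 is given the limit of 3 counts per library. The exception is the Mir29a arm ratio at serum 12 h, given in the text with its binomial bound. Without molecular identifiers, these limits cover counting error and nothing else. The labels name no replicates. Members and lists were chosen with earlier results of these data known. The miRNAs named are all arms of the 4 hairpins and, for each guide, the 5 miRNAs (at least 100 reads in all) with the highest r. Alternatives were other scalings, tests, filters, match lengths (18 bases, or the whole insert on the hairpin), at least 10 adapter bases, a pseudocount of 1, no experiment term and leaving out each library. TMM factors were 1.12 to 1.49 in the serum libraries and 0.602 to 0.779 in the contact libraries, so levels set across the 2 experiments depend on the scaling.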

Additional observations from a re-analysis of the deposited data

Results flagged for a closer look

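Of 10 sets of values looked at over the 5 libraries not labelled G0, 4 had 1 library apart from the rest. Chance gives about 1 in 20 only for independent sets of libraries that are alike. Here both sets flagged at serum 12 h hold the same 0 count, and both flagged on contact day 0 the same miR-29b-3p count. Only 1 of the 5 libraries is from contact, so 4 of 10 cannot be set against that rate. Serum 12 h stood apart for miR-29a-5p, whose log2(CPM + 1) was 0, and for the 5p to 3p ratio of Mir29a, at -14.9 on the log2 scale with the pseudocount. That library held 194249 miRNA reads but the fewest distinct miRNAs, 209, and whether this bears on the 0 was not tested. Contact day 0 stood apart for the 5p to 3p ratio of Mir29b-1, at 1.77 on the log2 scale, and for the ratio of miR-29b-3p to miR-29c-3p, at 0.011. It is also the only contact library of the 5, so its experiment and its condition cannot be told apart. The G0 difference of the ratio of miR-29b-3p to miR-29c-3p was 0.81 in contact and -0.82 in serum, on the log2 scale, and this difference between the experiments was not tested.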

How the results depend on the processing

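No paired analysis was possible because each condition is 1 library and the groups share no replicate numbers. G0 calls over all miRNAs numbered 2 in edgeR, 17 with DESeq2's own test (6 higher, 11 lower) and 12 with no filter. Leaving out 1 library gave 0 to 8, with 0 without serum 0 h, 8 without serum 16 h and 6 without contact day 3. The interaction called 1 with whole inserts on the hairpin and 0 in every leave-one-out fit that could be made. Without serum 0 h or contact day 0 it could not be estimated. Of 75 alternative log2 fold changes of members, 59 kept direction and side of the threshold, 7 (all miR-29b-1-5p) passed it, and 9 (all miR-29a-5p, -0.01 in the report) changed sign. Those were 0.15 with total reads, 0.049 with no filter, 0.031 with 18 bases matched, 0.032 with whole inserts, 0.41 with no experiment term, and 0.03 to 0.30 in 4 of the fits that left out 1 library, whose whole range was -0.33 to 0.30. All 62 alternatives of the ratio tests kept direction and stayed over the threshold, with adjusted permutation p of 0.0714 to 0.238 for the cluster ratio. The smallest unadjusted permutation p is 0.0179 with all 8 libraries and larger with 1 left out. After adjustment over 5 ratios, 1 ratio at that smallest p could not pass alone, so staying over the threshold says little. Of 87 single-library ratios, 23 moved beyond their counting interval, mainly by scaling. The cause of these changes was not tested. Depth limits miR-29b-2-5p, with 7 reads in all, and miR-29b-1-5p at serum 0 h, where it had 3 reads. It also limits miR-29c-5p at its annotated start outside the G0 libraries and 16 h. The 0 counts of miR-29c-5p in the G0 libraries are for that start only.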
